A study of Mus musculus with 8 samples.

Results

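The megakaryocyte and platelet genes described here are Pf4, Ppbp, Vwf, Selp, Gp1bb, Gp9, Gp5, Itga2b, Cd9 and Plek, 10 genes named for their roles in megakaryocytes and blood platelets. Every probe set of the array annotated to 1 of them alone was taken, unless it was listed at 0 on all arrays. That left 12 probe sets of 8 genes, out of 24404 tested probe sets among 45101 in all. Gp1bb (1422977_at and 1456427_at) and Gp9 (1419720_at) had no measured probe set. A probe set is a group of short probes on the array that together read 1 transcript region, and its signal is given on the log2 scale, so a difference of 1 is a doubling.

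RNA came from LSK cells of mouse bone marrow, 4 control mice (genotype WT) and 4 mice with a conditional Msi2 knockout (genotype Msi2KO, here Msi2 KO), with 1 Affymetrix array for each. LSK cells are the lineage-negative fraction that carries Sca-1 and Kit and holds the blood stem cells and early progenitors. Msi2 encodes Musashi-2, an RNA-binding protein of blood stem cells. The Cre driver, the time of deletion, and the age and strain of the mice are not given in the sources used here. Each array is taken as a separate mouse. The p-values judge the difference between the groups against the variation among these 8 arrays, whose number limits the precision.

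Megakaryocytes are the large bone marrow cells that shed platelets, and they arise from progenitors close to those of red cells and, in part, straight from blood stem cells. Platelet alpha granules store the chemokines Pf4 and Ppbp and the adhesion proteins von Willebrand factor (Vwf) and P-selectin (Selp). The Gp1b-IX-V complex on the platelet surface binds von Willebrand factor, and the integrin of which Itga2b (CD41) is the alpha chain binds fibrinogen. Some of these genes are also active in the stem cell compartment itself: Vwf marks platelet-biased stem cells, and Itga2b is found on early progenitors. Vwf and Selp are made by endothelial cells as well, and Cd9 and Plek by many blood cells.

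3 genes were taken for sequence: Selp, which was lower on every Msi2 KO array than on any control, and the neighbouring chemokine genes Pf4 and Ppbp. Pf4 and Ppbp had the largest mean increases of the members, with the groups overlapping for both. Their peak on Msi2 KO 4 was shared: by the brightest probe set, 7 of the 8 measured genes were highest there, all but Selp. The promoters of Selp, Pf4 and Ppbp are shown because they are the regulatory sequence of these genes. Each is the 250 bases before the start of the gene, from RefSeq on GRCm38.p6, plus strand: chr5:90772185-90772434 for Pf4, chr5:90768268-90768517 for Ppbp and chr1:164115014-164115263 for Selp. Capitals mark matches on either strand to the ETS core (AGGAAG or CGGAAG), the GATA core (AGATAA or TGATAA or AGATAG or TGATAG) or the TATA box (TATAAA).
Pf4: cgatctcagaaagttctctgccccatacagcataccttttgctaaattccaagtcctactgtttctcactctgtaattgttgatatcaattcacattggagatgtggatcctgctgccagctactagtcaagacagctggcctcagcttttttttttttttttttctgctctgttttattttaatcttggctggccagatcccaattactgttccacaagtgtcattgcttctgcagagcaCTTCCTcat
Ppbp: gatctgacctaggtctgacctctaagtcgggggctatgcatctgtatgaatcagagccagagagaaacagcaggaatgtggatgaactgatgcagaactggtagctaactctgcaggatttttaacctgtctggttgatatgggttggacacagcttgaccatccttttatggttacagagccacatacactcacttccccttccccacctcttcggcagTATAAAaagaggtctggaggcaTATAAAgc
Selp: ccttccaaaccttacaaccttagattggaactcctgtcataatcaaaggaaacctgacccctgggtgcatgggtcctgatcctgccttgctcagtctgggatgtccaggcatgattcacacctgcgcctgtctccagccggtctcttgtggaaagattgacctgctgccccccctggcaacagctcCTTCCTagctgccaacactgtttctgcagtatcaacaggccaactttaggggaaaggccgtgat
Pf4 held 1 ETS core, read as CTTCCT on the minus strand at bases -9 to -4 from the start, and Selp held the same letters at -64 to -59. Ppbp held TATAAA at -30 to -25 and again at -8 to -3. No GATA core lay in these 3 windows, which says only that its letters are not there. No match overlapped another. Of the 9 member genes with a promoter in the table, 7 held an ETS core, 2 a GATA core (Gp1bb and Gp5) and 1 a TATA box, beside 39.2%, 26.5% and 12.4% of all 32851 promoter windows of this length.

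The deleted gene was read first as a check of the labels. As the mean of its 4 bright probe sets, relative to the control average, Msi2 was 91.1% to 111% in controls. In Msi2 KO it was 72.6%, 63.4%, 15.1% and 40.5% for arrays 1 to 4. By this mean all 4 Msi2 KO arrays lay below all controls (two-sided exact permutation p 0.0286, the smallest that 4 arrays against 4 allow). The loss was uneven. A dimmer Msi2 probe set, left out of the mean, read 4.8 to 6.33 on controls and 4.08 to 4.9 in Msi2 KO. The groups overlapped there (two-sided exact permutation p 0.0857). In the limma fit across all probe sets no Msi2 probe set had an adjusted p under 0.05, with values from 0.378 to 0.517. Array medians of the tested probe sets lay between 7.03 and 7.07. Msi2 KO 3 stood apart, with a score of 69.4 along principal component 1, which took 28.6% of the variance, against -39.4 to 17.0 for the others. Xist, which female cells express, was high on 5 arrays (11.92 to 12.51) and low on 3, which were Msi2 KO 1, Msi2 KO 2 and control 1 (4.79 to 5.55), so the sexes were not balanced between the groups. Kit, on which the cells are gated, read 8.39 to 9.19. Of the genes used to divide LSK cells further, Cd34 (9.68 to 10.63) and Cd48 (9.63 to 10.50) varied less than Flt3 (7.52 to 9.85), Procr (6.48 to 9.29) and Thy1 (5.32 to 8.28). Each of these was lowest on Msi2 KO 3. Of 7 measured gate genes 6 were lower in Msi2 KO and 1, Kit, higher, with a median difference of -0.41. Thy1 differed most, by -1.75 ± 0.41 (SE). Of the lineage antigens Cd5 was near background (3.73 to 4.32), Cd3e, Cd4, Cd8a and Itgam were listed at 0, and Ptprc, whose B220 form is the antigen while other forms are on all white cells, read 9.33 to 10.43. Ptprc differed by -0.44, with all Msi2 KO arrays below the controls. Sca-1 (Ly6a) was not analysed here.

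Across the 12 probe sets the genes did not move as a group. 5 were higher in Msi2 KO and 7 lower, with a median difference of -0.15 on the log2 scale. For all probe sets tested the median was 0, with 50.1% higher and 49.9% lower. Selp and Plek count 3 times each among the 12. By the brightest probe set of each gene, Pf4, Ppbp, Gp5 and Cd9 were higher and Vwf, Selp, Itga2b and Plek lower, with a median difference of 0.04. In the limma fit across all probe sets, 0 of the 12 passed the threshold of 0.05 on the adjusted p, beside 0 of 24404 (0%) in the whole table. At an unadjusted p under 0.05 stood 4 of the 12, the 3 of Selp and the 1 of Ppbp. Beside them stood 2371 (9.72%) in the whole table, 4.84% lower and 4.87% higher, or 11.4% of all genes in the fit by gene. The groups did not overlap for the 3 Selp probe sets, all lower, beside 2.96% of all probe sets with every Msi2 KO array below the controls, 3.12% with every one above and 6.09% either way. These 3 read the same gene, so by gene it is 1 of 8, beside 3.48% of 10720 genes, with 3.63% above and 7.11% either way. Without Msi2 KO 4 the split was 4 higher and 8 lower.

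**Figure D1:**
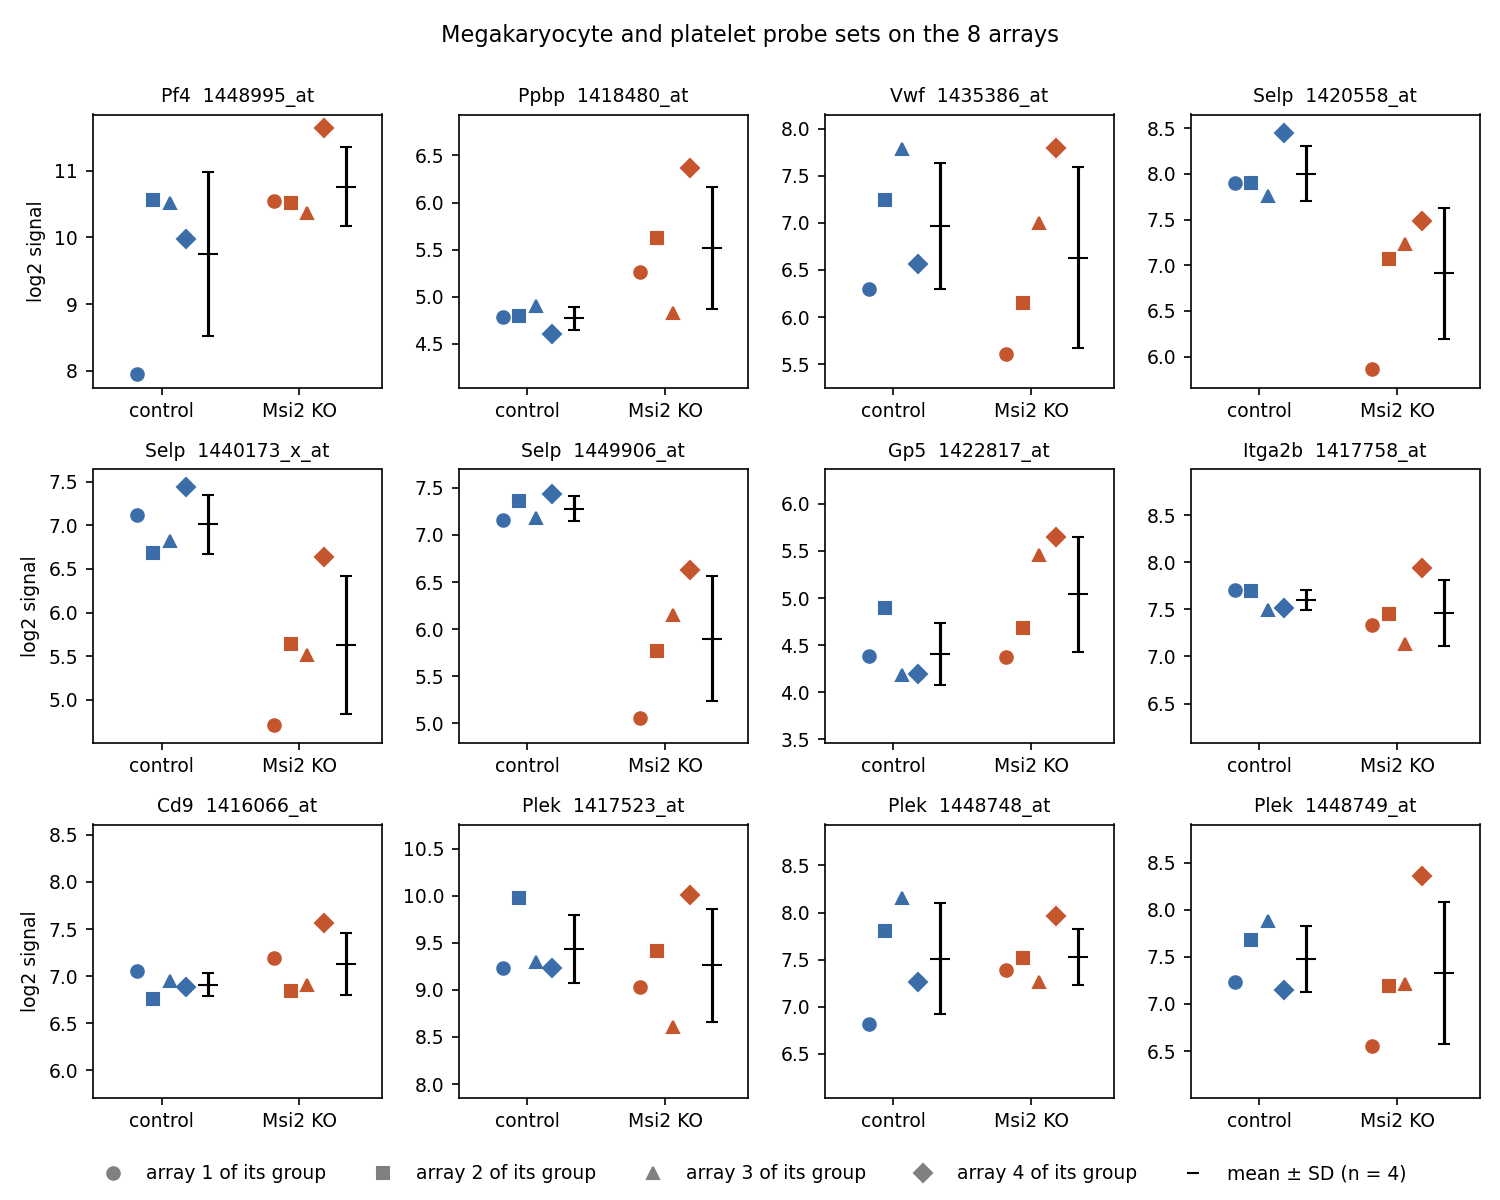
Log2 signal of the 12 measured probe sets on each array, with controls in blue, Msi2 KO in red, symbols for the array within its group (the same number does not pair arrays) and black bars for mean ± SD (n = 4). The scale differs between panels. Only the 3 Selp panels show no overlap between the groups, and the red diamond (Msi2 KO 4) is the highest point in 8 of the 12 panels.

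Selp encodes P-selectin, which is stored in platelet alpha granules and in endothelial cells and, once at the surface, lets them roll on or catch leukocytes. On 1420558_at its log2 signal was 7.90, 7.90, 7.76 and 8.45 on control 1 to control 4 and 5.86, 7.07, 7.23 and 7.48 on Msi2 KO 1 to Msi2 KO 4. On 1449906_at the controls read 7.16, 7.36, 7.18 and 7.43 and the Msi2 KO arrays 5.06, 5.77, 6.15 and 6.63. On 1440173_x_at the controls read 7.12, 6.68, 6.82 and 7.44 and the Msi2 KO arrays 4.71, 5.64, 5.52 and 6.64, the highest of them just under the lowest control. Msi2 KO 1 was the lowest array and Msi2 KO 4 the highest Msi2 KO array on all 3 probe sets.

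The Selp differences were -1.10 (95% confidence interval -1.85 to -0.34) for 1420558_at, -1.38 (-2.05 to -0.72) for 1449906_at and -1.38 (-2.21 to -0.56) for 1440173_x_at, or 2.14-fold, 2.61-fold and 2.61-fold lower. Each had a two-sided exact permutation p of 0.0286. In the limma fit the adjusted p was 0.400, 0.317 and 0.362, so none passed over all probe sets. Their places in the order of p were 554, 77 and 273 of 24404. The difference had the same sign at both Xist levels: within the 5 arrays with high Xist (3 controls, 2 Msi2 KO) it was -0.69, -0.94 and -0.90 in the same order, and within the 3 with low Xist (1 control, 2 Msi2 KO) -1.44, -1.75 and -1.95.

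The mean of the 3 Selp probe sets, relative to the control average, was 21.4%, 41.4%, 45.5% and 69.9% for Msi2 KO arrays 1 to 4 and 88.3% to 126% in controls. The order over the Msi2 KO arrays was not that of Msi2. Msi2 KO 1 kept the most Msi2 of the 4 (72.6%) and had the least Selp, and Msi2 KO 3, with the least Msi2 (15.1%), had the second-highest Selp of the 4. For 1420558_at, 1449906_at and 1440173_x_at the Selp difference was -1.20, -1.47 and -1.35 without Msi2 KO 3. It was smallest without Msi2 KO 1, the array with the least Selp, at -0.75, -1.10 and -1.08.

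**Figure D2:**
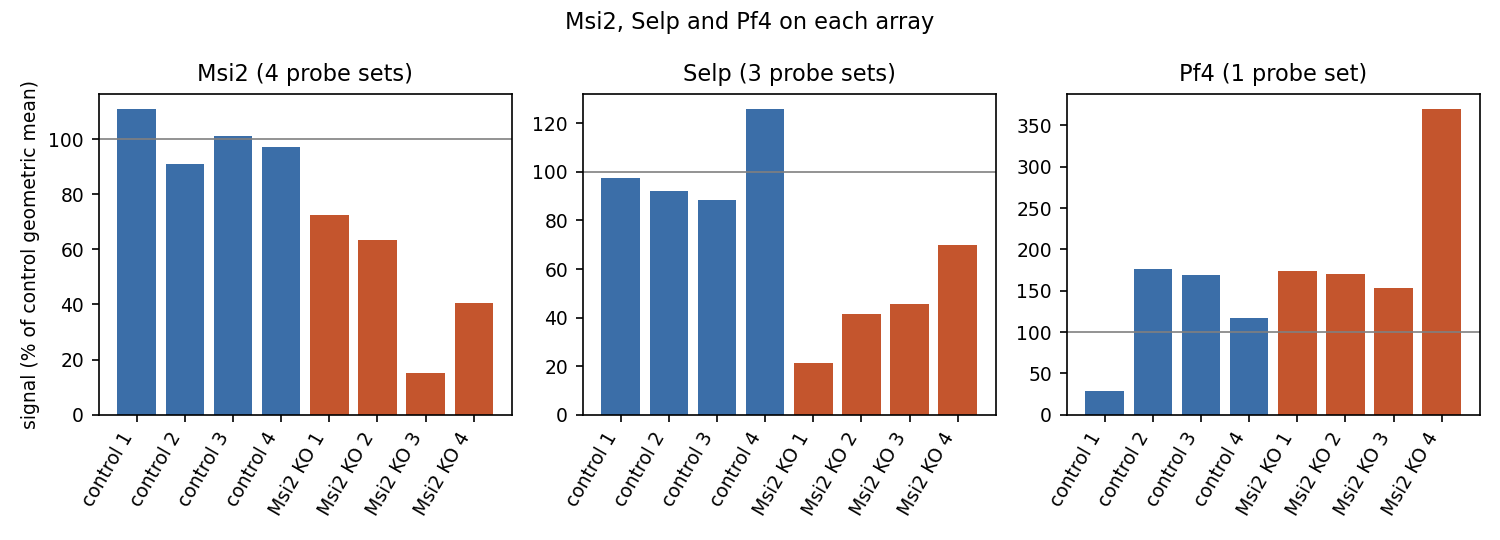
Signal of Msi2 (mean of 4 bright probe sets), Selp (mean of 3) and Pf4 (1 probe set) on each array, as percent of the geometric mean of the controls (grey line), with controls in blue and Msi2 KO in red. Selp is lowest on Msi2 KO 1 (21.4%) while Msi2 is lowest on Msi2 KO 3 (15.1%), and Pf4 reaches 370% on Msi2 KO 4 and falls to 28.8% on control 1.

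Markers of other cells were read beside Selp, since endothelium makes it too. Of 24 endothelial genes 13 were measured, and 11 were listed at 0, among them the defining genes Kdr, Plvap, Stab2 and Cldn5. VE-cadherin (Cdh5), found in all endothelium, lay between 3.28 and 3.73 on the 8 arrays, near background. Egfl7 (8.91 in controls, 8.48 in Msi2 KO) and Eng (7.77 and 8.24) were read well above that. Of the 13, 8 were lower in Msi2 KO and 5 higher, with a median difference of -0.44. At an unadjusted limma p under 0.05 stood 5 of the 13, all lower, beside 5.66% of all genes. Robo4 (-0.96 ± 0.27, SE, with all Msi2 KO arrays below the controls) and Tek (-0.90 ± 0.29) had the smallest p. The others of the 5 were Esam (-1.21), Tie1 (-0.79) and Pecam1 (-0.64). Robo4, Tek, Esam and Tie1 are also in the blood stem cell list below, so the 2 lists are not separate readings. The summed log2 signal of the 13 was 10.59 to 10.97 on controls and 9.82 to 10.60 on Msi2 KO arrays. Of 25 measured blood stem cell genes 22 were lower, with a median of -0.60 against 0 for all genes. That list's array median was lowest for Msi2 KO 3 (-1.36), where the other Msi2 KO arrays ranged from -0.33 to -0.20, an order different from that of Selp. The part of these lists in the Selp difference was not tested, and in bulk RNA fewer cells of a type and less RNA per cell cannot be told apart.

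Vwf encodes the long adhesion protein that carries platelets to a wound. Its log2 signal (1435386_at) was 6.30, 7.24, 7.78 and 6.56 on the controls and 5.61, 6.15, 7.0 and 7.79 on Msi2 KO 1 to Msi2 KO 4. The arrays overlapped widely and both groups spanned more than the difference between them, which was -0.34 ± 0.48 (SE; limma adjusted p 0.865). Without Msi2 KO 1 the difference was 0.01, and without any other single array it ran from -0.72 to -0.07. In the 5 arrays with high Xist it was 0.20. Vwf thus did not share the separation seen for Selp, its companion in the alpha granule.

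Pf4 (platelet factor 4, CXCL4) and Ppbp (pro-platelet basic protein, CXCL7) are chemokines of the CXC family that megakaryocytes pack into alpha granules, and the genes lie next to each other on chromosome 5. Pf4 (1448995_at) read 7.95, 10.56, 10.51 and 9.97 on control 1 to control 4 and 10.55, 10.51, 10.36 and 11.64 on Msi2 KO 1 to Msi2 KO 4. Control 1 was far below and Msi2 KO 4 above a band from 9.97 to 10.56 that held the other 6 arrays of both groups. The difference was 1.02 ± 0.56 (SE), or 2.02-fold (limma adjusted p 0.593; two-sided exact permutation p 0.229). It rested on these 2 arrays, at 0.42 without control 1, 0.73 without Msi2 KO 4 and 0.13 without both, a combination chosen after the values were seen. In the arrays with high Xist it was 0.65 and in those with low Xist, where control 1 is the only control, 2.58.

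Ppbp (1418480_at) read 4.78, 4.80, 4.90 and 4.60 on the controls and 5.26, 5.62, 4.83 and 6.37 on Msi2 KO 1 to Msi2 KO 4. The controls lay close together and near background, and 3 of the 4 Msi2 KO arrays were above them. The difference was 0.75 ± 0.29 (SE; limma adjusted p 0.467, two-sided exact permutation p 0.0571), and without Msi2 KO 4 it was 0.47. A level under 5 counts as near background here, so no fold is given. Ppbp and Pf4 had Msi2 KO 4 as their highest array in common but not control 1 as their lowest.

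Of the von Willebrand factor receptor only Gp5, the leucine-rich subunit that thrombin cleaves, was measured. Gp5 (1422817_at) read 4.39, 4.89, 4.18 and 4.19 on the controls and 4.37, 4.68, 5.46 and 5.65 on Msi2 KO 1 to Msi2 KO 4. Msi2 KO 3 and Msi2 KO 4 were above all controls and the other 2 were among them. The control mean was near background, and the difference was 0.63 ± 0.30 (SE; limma adjusted p 0.542). In the arrays with high Xist alone it was 1.14 and in those with low Xist 0.13, and the test of that contrast gave a limma adjusted p of 0.589. Gp1bb, the chain linked to Gp1ba, and Gp9 were listed at 0, and RMA does not yield such values, so a listing at 0 is no measured absence.

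Itga2b (CD41), among the first markers of the megakaryocyte lineage, varied little. On 1417758_at the controls read 7.71, 7.69, 7.49 and 7.51 and the Msi2 KO arrays 7.33, 7.45, 7.13 and 7.94. Msi2 KO 1 to Msi2 KO 3 lay below all controls and Msi2 KO 4 above them. The difference over the 4 was -0.14 (95% confidence interval -0.55 to 0.27; limma adjusted p 0.856), and without Msi2 KO 4 it was -0.30.

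Cd9, a tetraspanin of platelets, megakaryocytes and many other cells, read 7.05, 6.76, 6.95 and 6.89 on the controls and 7.19, 6.84, 6.91 and 7.56 on the Msi2 KO arrays (1416066_at). The difference was 0.21 (-0.19 to 0.62; limma adjusted p 0.745), and without Msi2 KO 4 it was 0.07. Msi2 KO 1 and Msi2 KO 4 were above the controls and the other Msi2 KO arrays among them.

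Plek encodes pleckstrin, the main target of protein kinase C in platelets, which other white cells express too. The difference was -0.17 for 1417523_at, 0.02 for 1448748_at and -0.16 for 1448749_at, with limma adjusted p between 0.898 and 0.988. On 1417523_at the controls read 9.23, 9.98, 9.29 and 9.23 and the Msi2 KO arrays 9.03, 9.41, 8.60 and 10.01. The 3 probe sets did not order the arrays alike. Msi2 KO 4 was the highest array on 1417523_at and 1448749_at and control 3 on 1448748_at, while the lowest array was Msi2 KO 3 on 1417523_at, control 1 on 1448748_at and Msi2 KO 1 on 1448749_at. Unlike Selp, Plek thus gave no common direction over its probe sets.

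**Figure D3:**
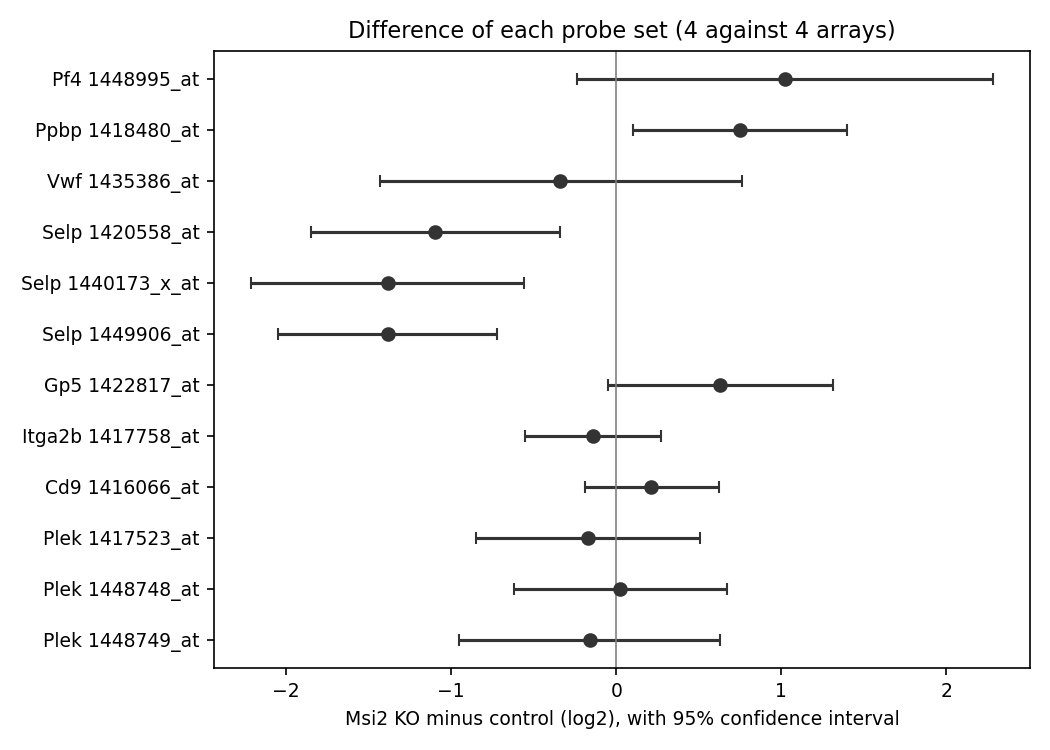
Difference of Msi2 KO minus control on the log2 scale for each of the 12 probe sets, with its 95% confidence interval from limma (4 against 4 arrays). The 3 Selp intervals lie below 0 and that of Ppbp above it (0.10 to 1.40), before any adjustment for the 24404 probe sets tested. The other 8 intervals include 0.

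Taking the brightest probe set of each gene, 7 of the 8 measured genes had their highest value on Msi2 KO 4, all but Selp. Of all genes tested, 8.26% were highest on that array. The median of the 8 genes stood 0.73 above the control mean on Msi2 KO 4, against -0.16 to 0.18 for the remaining 7 arrays. The gap to the next array was 1.07 for Pf4, 0.75 for Ppbp, 0.38 for Cd9, 0.23 for Itga2b and 0.19 for Gp5, but only 0.01 for Vwf and 0.03 for Plek. The Msi2 KO 4 array was not the one that stood apart over all probe sets, and its Msi2 was at 40.5%.

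Other genes of the lineage did not peak there in the same way. On Msi2 KO 4 were highest 3 of 20 further platelet surface receptors, 3 of 28 further granule and secretion genes and 4 of 34 platelet signalling and cytoskeleton genes. The same held for 1 of 20 megakaryocyte transcription factors and 1 of 11 genes of thrombopoietin signalling. Of the lists named for other cell types, 6 of 7 neutrophil genes and 5 of 14 macrophage and monocyte genes were highest on Msi2 KO 4. Highest on that array too were 2 of 8 mast cell and basophil genes, 1 of 13 endothelial genes and 0 of 15 erythroid genes. The mast cell and basophil list was also highest there as a whole, with a summed log2 signal of 10.73 against 9.95 to 10.58 on the other Msi2 KO arrays and 9.35 to 10.22 on controls. Of its 8 measured genes 6 were higher in Msi2 KO and 2 lower, with a median difference of 0.61. The brightest of them was Kit (0.34 higher), on which LSK cells are gated, so the sum is not a reading of mast cells alone. Fcer1a (2.60) and Cpa3 (1.87) had all Msi2 KO arrays above the controls, while Mcpt8 differed by -0.50. Of the 14 macrophage and monocyte genes 12 were higher in Msi2 KO and 2 lower, with a median difference of 0.70. The 2 lower ones, Lyz2 (-0.79) and Ccr2 (-0.47), were the brightest and so weighed most in the sum. The summed log2 signal of the macrophage list was 11.45 to 12.15 on controls and 11.40 to 12.38 on Msi2 KO arrays, with 12.38 on Msi2 KO 4. The summed neutrophil signal was 13.23 to 14.12 on controls and 13.65 to 14.21 on Msi2 KO arrays, and both lists had their lowest control on control 1, as Pf4 did. Of these lists, the mast cell and basophil genes Mcpt4, Cma1, Tpsab1, Gzmb and Cd200r3 were listed at 0. So were the macrophage genes C1qa, C1qc, Itgam, Fcgr1 and Marco and the neutrophil genes Camp, Ltf, Lcn2, Fcnb, Itgb2l, Mmp8 and Mmp9. Which cells gave these signals, and their part in the member values, was not tested.

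**Figure D4:**
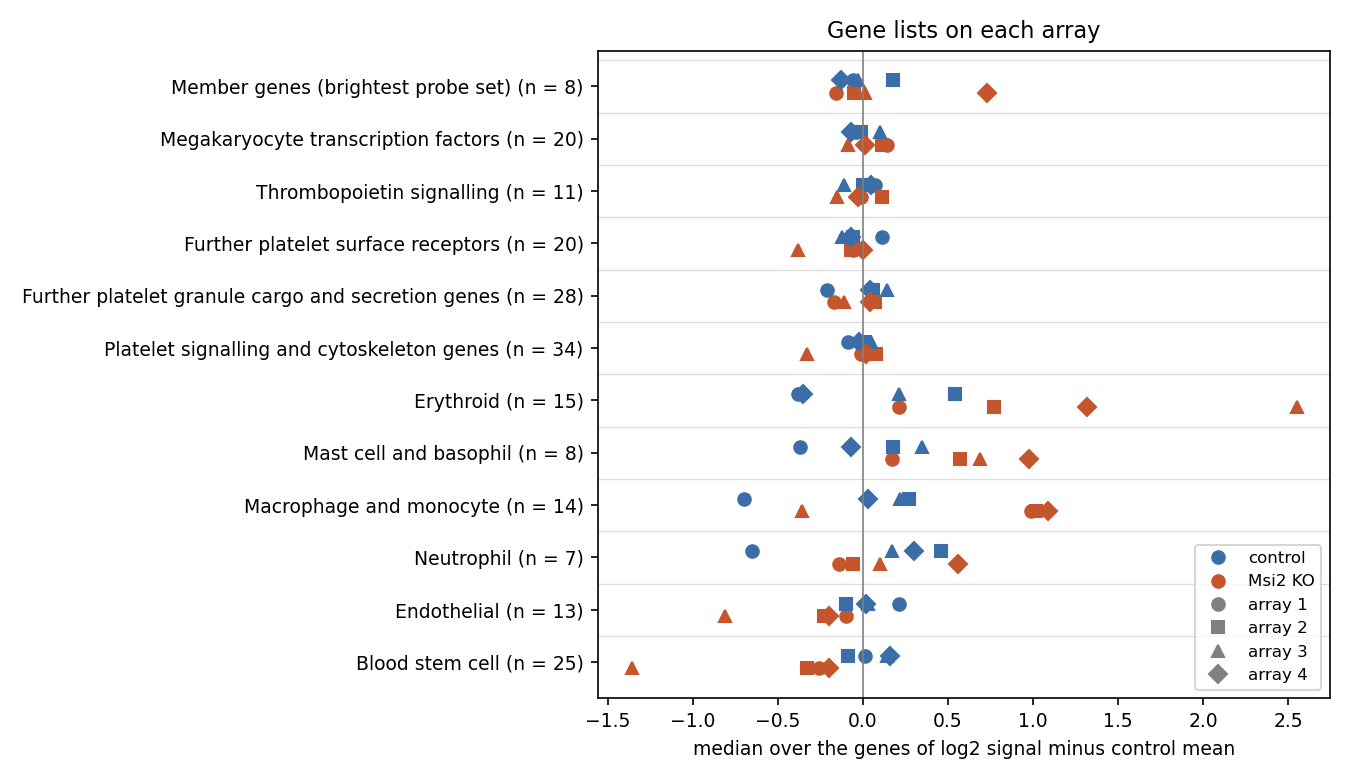
Median over the genes of each list of the log2 signal minus the control mean, for every array (controls blue, Msi2 KO red, symbols for the array number within its group). On Msi2 KO 4 the 8 member genes are at 0.73 and the 5 lists of further megakaryocyte and platelet genes between -0.03 and 0.04, while the erythroid (1.32), macrophage (1.09) and mast cell (0.98) lists are higher than the members.

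The 5 lists of further megakaryocyte genes showed no common direction, and 0 of their genes passed the limma threshold over all genes, beside 0 of 10720 (0%), with 1222 (11.4%) at an unadjusted p under 0.05, 5.66% lower and 5.74% higher. Of all genes 50.4% were higher and 49.6% lower by any amount. Of the 20 megakaryocyte transcription factors 11 were higher and 9 lower, with a median difference of 0.04. Those with the smallest p were higher: Zfpm1 (FOG1, the partner of Gata1) by 1.05 ± 0.19 (SE), Gata1 by 1.37 ± 0.37 and the repressor Gfi1b by 0.95 ± 0.35, with limma adjusted p of 0.226, 0.287 and 0.388. These factors also act in red cells, and all 15 measured erythroid genes were higher, with a median of 1.26 and a summed log2 signal of 12.41 to 13.42 on controls and 13.14 to 14.66 on Msi2 KO arrays. The erythroid genes Alas2, Sptb, Trim10 and Hba-a1 were listed at 0, and the part of red cell progenitors was not tested. Erg, an ETS factor of stem cells and megakaryocytes, was lower by the largest amount in the list, at -0.74 ± 0.28 (SE; limma adjusted p 0.396), with all Msi2 KO arrays below the controls. Among others chosen after their values were seen, Ets1 was at -0.32, Fli1 at -0.20, Runx1 at -0.06 and Nfe2 at 0.06.

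Of 11 measured genes of thrombopoietin signalling, the main growth signal of megakaryocytes, 4 were higher and 7 lower, with a median of -0.03. Stat5a, a transducer of the signal, was 0.33 ± 0.13 (SE) higher, with all Msi2 KO arrays above the controls (limma adjusted p 0.397), while its paralog Stat5b differed by -0.19. The kinases Tyk2 (0.27) and Jak2 (-0.11) differed in sign.

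Of 20 further platelet surface receptors 6 were higher and 14 lower, with a median of -0.14. Esam, an adhesion molecule of platelets, endothelium and stem cells, differed by -1.21 ± 0.43 (SE), the ATP-gated channel P2rx1 by -0.60 ± 0.23 and the prostaglandin receptor Ptger3 by -0.41 ± 0.16, with limma adjusted p of 0.376 to 0.396. Itgb3, the beta chain that pairs with Itga2b, read 7.11 to 8.99 on controls and 7.26 to 9.28 on Msi2 KO arrays, a difference of 0.19. Like the members, Itgb3 was highest on Msi2 KO 4. The collagen receptor Gp6 and Treml1, both typical of mature platelets, were listed at 0.

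Of 28 further granule and secretion genes 11 were higher and 17 lower, with a median of -0.12. Tgfb1 was 0.52 ± 0.19 (SE) higher, Stx11 1.21 ± 0.43 higher and Hps1, near background, 0.78 ± 0.21 higher, with limma adjusted p from 0.287 to 0.388. F13a1, the clotting factor XIII subunit, differed by -0.56, Mmrn1 by -0.18 and Rab27b, which moves dense granules, by 0.18. Of 34 signalling and cytoskeleton genes 14 were higher and 20 lower, with a median of -0.01. Filamin A (Flna) was 0.46 ± 0.14 (SE) higher, and phospholipase Pla2g4a (-0.54 ± 0.16) and tropomyosin Tpm1 (-0.60 ± 0.18) were lower, with limma adjusted p of 0.304 to 0.310. The groups did not overlap for these 3 and for the myosin kinase Mylk, the largest drop of them at -0.98, or 4 of 34, beside 7.11% of all genes. The platelet tubulin Tubb1 and the myosin light chain Myl9 were listed at 0.

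Over the 8 arrays and the 28 pairs of the 8 genes, 0 passed after Benjamini-Hochberg adjustment of the exact permutation p. The pair with the highest Pearson's r was Itga2b and Plek, at 0.88 (exact permutation p 0.00682, adjusted 0.191) and Spearman's rho of 0.67 (exact permutation p 0.0831, adjusted 0.673). Without Msi2 KO 4 and Msi2 KO 3, the arrays farthest from the median of Itga2b, r was 0.62. With the group means removed it was 0.88, and that of Ppbp and Itga2b was 0.93 (0.46 before, and -0.36 without Msi2 KO 4 and Msi2 KO 2). By Spearman's rho the strongest pair was Ppbp and Selp, at -0.76 (exact permutation p 0.0368, adjusted 0.673). For the neighbours Pf4 and Ppbp r was 0.61 (exact permutation p 0.124, adjusted 0.561) and rho 0.71 (exact permutation p 0.0576, adjusted 0.673), with r of 0.58 without control 1 and Msi2 KO 4 and of 0.41 with the group means removed.

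The genes whose array profile was most like that of Pf4 were Cavin2, a caveolar coat protein also abundant in platelets, Timp3, an inhibitor of metalloproteinases, and Slc40a1, the iron exporter ferroportin. Likeness is the root mean square difference of the log2 values over the 8 arrays after each gene is centred on its own mean, and it was 0.24, 0.38 and 0.39, beside 0.98 for Pf4 itself around its mean. Cavin2 read 5.10 on control 1, 6.66 to 7.70 on the other controls and 7.13, 7.15, 7.28 and 8.08 on Msi2 KO 1 to Msi2 KO 4. It thus had the low control 1 and the high Msi2 KO 4 of Pf4. The genes nearest to Vwf were Kcnj5 (0.25), Trem3 (0.28) and Dram1 (0.30), beside 0.73 for Vwf, and those nearest to Itga2b were Rhbdd3 (0.08), Tmem67 (0.10) and Vangl1 (0.10), beside 0.23. The nearest of 10720 genes over 8 arrays will be close to any profile, so these are descriptions.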

How the data were processed

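Each value is a log2 signal of 1 probe set on 1 array, normalized by the authors and deposited as 1 table. The submitters' processing notes name RMA, with no version given in the sources used here. Of the 45101 probe sets 20664 (45.8%) were 0 on all arrays by an unstated step and were left out. Gene names came from the platform annotation, updated by gene ID through RefSeq (GRCm38.p6, names only): 34958 probe sets had 1 gene, 932 had several, and 9160 had none listed. 64 AFFX control probe sets were left out. A gene was represented by its brightest probe set (10720 genes). Levels of different probe sets are not comparable, apart from being near background or not.

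Groups were compared with limma 3.58.1 in R 4.3.3 (lmFit, eBayes, two-sided), fitted and Benjamini-Hochberg adjusted over the whole table, and by exact permutation over the 70 assignments of the arrays. The procedure was tested on simulated data. Lists are described by counts and medians. Of each list of further megakaryocyte genes the 3 with the smallest p are named, and some others chosen after their values were seen. As alternatives, quantile normalization was repeated, and the fit was run with median centring, a level filter, a trended robust prior, array weights, a replicate block, Xist level, leaving out arrays, and keeping probe sets at 0 in the adjustment. Members and lists were chosen with earlier results of these data known.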

Additional observations from a re-analysis of the deposited data

Results flagged for a closer look

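In 34 groups of 4 arrays (17 probe sets of the members and Msi2 in each group), 2 held an array that stood apart from the other 3 by Dixon's criterion, which chance meets in about 1 of 20 groups. Pf4 (1448995_at) was 11.64 on Msi2 KO 4, while the other Msi2 KO arrays lay between 10.36 and 10.55. Plek (1417523_at) was 9.98 on control 2, while the other controls lay between 9.23 and 9.29, and its other probe sets did not single out that array.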

How the results depend on the processing

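In 208 of 222 refits of single member probe sets under the alternatives, direction and side of the threshold stayed as reported, 14 changed sign, and none passed or lost the limma threshold. Selp was lower in Msi2 KO in all 55 refits of its probe sets, with adjusted p from 0.188 to 0.738, where 1440173_x_at and 1449906_at have no value under the level filter, since they lie below the median level. The changed signs were all of Plek, Vwf and Cd9, with reported differences from -0.34 (Vwf) to 0.21 (Cd9). Plek 1448749_at was at 0.032 with array weights, 0.0077 with Xist level in the model, and 0.21 where Xist was high. In those arrays Vwf was at 0.20 and Plek 1448748_at at -0.13, which was at -0.35 without both control 1 and Msi2 KO 4. Cd9 was at -0.0345 in the arrays with low Xist (1 control, assumed to vary like the others). Leaving out 1 array gave -0.20 to 0.24 for Plek 1448748_at, -0.50 to 0.10 for 1448749_at, -0.42 to 0.0513 for 1417523_at and -0.72 to 0.0068 for Vwf. The median difference of the member probe sets ran from -0.42 to 0.08 over 21 alternatives, above 0 in 4. The count of all probe sets past the threshold, 0 as reported, was 1 with repeated quantile normalization, with the level filter and with array weights, 2 with a trended robust prior, and 0 to 1 with 1 array left out. That of genes was 5 with Xist as a covariate and 0 to 1 with 1 array left out. The causes were not tested. Same-numbered arrays did not deviate together (correlations 0.132, -0.121, 0.079 and -0.038). With the replicate block Selp had adjusted p of 0.456, 0.450 and 0.450, and 0 probe sets passed. No detection calls were available to this work, so levels under 5 are only treated as near background.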

Other observations

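The genes beside Selp and Pf4 were chosen after the values were seen. Near Selp on chromosome 1, in RefSeq gene order, lie the selectin gene Sele and the clotting factor gene F5. Sele, E-selectin, went from 5.38 ± 0.57 to 5.97 ± 0.86 (SD, n = 4 each), opposite in sign to Selp, and the thiamine transporter gene Slc19a2 differed by 0.87 ± 0.31 (SE). Of the same sign as Selp, but smaller, were Mettl18 at -0.31, with all Msi2 KO arrays below the controls, Ccdc181 at -0.31 and F5 at -0.32, which was near background in both groups (4.83 and 4.52). Pf4 and Ppbp, themselves neighbours on chromosome 5, both had a higher mean in Msi2 KO. Around them the chemokine genes Cxcl5, Cxcl3, Cxcl15 and Cxcl1 were listed at 0.

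The genes whose array profile was nearest to that of Selp were Dhrs1, a short-chain dehydrogenase, Pde2a, a phosphodiesterase, and Magi3, a scaffold protein, with root mean square differences of 0.21, 0.27 and 0.27, beside 0.73 for Selp around its own mean. Dhrs1 read 8.82, 8.90, 8.66 and 8.98 on the controls and 7.05, 8.02, 7.76 and 8.44 on Msi2 KO 1 to Msi2 KO 4, with the groups apart and a difference of -1.02 (limma adjusted p 0.276). Magi3 read 4.61 on Msi2 KO 1 and 6.0 to 6.75 on the other Msi2 KO arrays.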
